A study of Homo sapiens with 6 samples.

Results

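FGFR3, TACC3 and the genes that carry the FGF receptor signal were followed across 6 cultures derived from RT4, a human bladder cancer cell line. The set holds 9 genes of the 34694 gene names on the array, taken by name with every probe: the receptors FGFR1, FGFR2, FGFR3 and FGFR4, TACC3, the FGF carrier FGFBP1, the adaptor FRS2, and the transcription factors ETV4 and ETV5. They were taken by name, with earlier results of these data known. Together they have 18 probes, of which 9 were detected on at least 1 array, and these 9 probes belong to 6 of the 9 genes.

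FGF receptors are receptor tyrosine kinases. A secreted FGF, held by heparan sulfate chains, brings receptors together, the kinases phosphorylate each other and the adaptor FRS2, and the signal passes through Ras to ERK, whose output includes the transcription factors ETV4 and ETV5. FGFR3 is often altered in luminal bladder cancers, and RT4 is known for a rearrangement that joins FGFR3 to its neighbour TACC3, giving a receptor kinase that carries the coiled-coil end of TACC3. TACC3 on its own is a protein of the mitotic spindle.

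The study asked how the transcriptome differs along the blebbishield program and between derived lines. Blebbishields are bodies that form when apoptotic cells pull their blebs together, and they can fuse into spheres that give rise to live cells. Total RNA of each culture went onto 1 Illumina HumanHT-12 version 4 bead array, a glass array whose 1-colour beads carry a gene probe each. RT4P live cells were RT4 cells without treatment. The blebbishield culture was RT4 exposed to 1 uM cisplatin, a DNA crosslinking drug, with 20 mM lithium chloride for 24 h, and held blebbishields that form spheres and others that do not. The spheres had the same 24 h exposure, then 4 h of transformation and isolation as pure spheres. RT4P-BSE2 live cells had come through 2 serial rounds of the blebbishield program. RT4v6 live cells had been passaged in mice 6 times to enrich cancer stem cells. PBSHMS live cells are a line made by fusing an RT4 blebbishield with human blood mononuclear cells. These 3 lines and RT4P live were not treated for this experiment, and all 6 cultures descend from RT4.

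Each group is 1 array, so no replicate error exists and no test was run. A level below is the normalized log2 intensity of a probe, and a difference is the level in the first culture minus that in the second. A probe was detected where its detection p-value, taken against the array's negative control beads, lay under 0.01. A gene was counted as higher or lower at 2-fold or more, which is a rule of size and not of significance. As a gauge, the probe SD of a comparison comes from the spread between differences reported by 2 probes of the same gene. That spread is divided by the square root of 2, to stand for 1 probe. The probe SD ran from 0.22 for RT4P-BSE2 to 0.40 for blebbishields, both against RT4P live, and is not replicate error. Where a probe was undetected on the dimmer array, the difference is a bound and is written as "at least".

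The blebbishield array stood apart, with 14749 detected probes and a mean signal of 263.2. The other 5 arrays had 15788 to 17593 detected probes and mean signals of 349.5 to 389.2. Normalization brings the arrays to the same distribution, and comparisons with the blebbishield array rest on this step. The list genes outside the set were not recomputed under other scalings. The epithelial label was borne out by the markers, since all 17 urothelial and epithelial genes looked at were detected on all 6 arrays. Of 18 blood mononuclear markers, 11 were detected on no array, PTPRC and CD3D among them, also in PBSHMS. LCP1 and CD68 were the 2 found on all arrays. Of 8 stromal markers VIM was the 1 detected, and of 5 endothelial markers VWF was the 1 detected. KRT20, a keratin of mature urothelium, was 12.1-fold higher in spheres and 8.57-fold higher in blebbishields than in RT4P live, and UPK1B, a uroplakin, was 2.71-fold lower in blebbishields. Of the 17 epithelial markers, 4 were higher and 1 lower in RT4P-BSE2, 3 were higher in RT4v6 and 4 in PBSHMS, each against RT4P live. Over all genes measured, 1.3% were higher and 0.27% lower in RT4P-BSE2, 1.15% were higher in RT4v6 and 1.8% in PBSHMS. In RNA from whole cultures, fewer cells expressing a gene and less RNA per cell cannot be told apart.

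FGFR3 and TACC3 were both lower in the spheres, so the promoters of both are shown, with that of FGFBP1, also on chromosome 4, which did not follow them. The letters are RefSeq's (GRCh38.p14), 250 bases before to 50 bases after each annotated start, written 5′ to 3′ on the gene's strand. Capitals mark GC boxes, GGGCGG on either strand, the core of the site that Sp1 binds.
FGFR3: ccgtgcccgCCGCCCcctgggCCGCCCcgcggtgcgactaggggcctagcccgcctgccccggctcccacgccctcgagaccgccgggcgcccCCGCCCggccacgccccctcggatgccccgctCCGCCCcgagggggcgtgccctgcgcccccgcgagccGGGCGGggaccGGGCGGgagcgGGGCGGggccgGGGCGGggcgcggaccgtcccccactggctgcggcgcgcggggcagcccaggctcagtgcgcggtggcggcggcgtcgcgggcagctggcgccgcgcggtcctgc
TACC3: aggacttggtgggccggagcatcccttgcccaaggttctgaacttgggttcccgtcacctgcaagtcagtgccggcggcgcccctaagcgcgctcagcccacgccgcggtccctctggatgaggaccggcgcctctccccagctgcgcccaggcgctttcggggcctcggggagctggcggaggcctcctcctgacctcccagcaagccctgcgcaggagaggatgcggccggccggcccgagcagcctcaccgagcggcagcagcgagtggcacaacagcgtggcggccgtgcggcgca
FGFBP1: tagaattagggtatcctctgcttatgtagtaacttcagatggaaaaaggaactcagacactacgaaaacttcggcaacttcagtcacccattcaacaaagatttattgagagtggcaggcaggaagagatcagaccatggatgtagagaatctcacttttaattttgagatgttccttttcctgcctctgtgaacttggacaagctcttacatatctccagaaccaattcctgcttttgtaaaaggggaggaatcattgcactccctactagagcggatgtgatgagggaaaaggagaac
FGFR3's stretch is chr4:1793043-1793342 on the plus strand, TACC3's is chr4:1720381-1720680 on the plus strand, and FGFBP1's is chr4:15938691-15938990 on the minus strand. The FGFR3 promoter is 86.3% G or C and holds 8 GC boxes. TACC3 is 72% G or C with 0 GC boxes, and FGFBP1 is 42% G or C with 0. Among 35116 RefSeq promoters of this length the median is 58.7% G or C, 99.9% lie below FGFR3, and 45.0% hold at least 1 GC box. The 3 promoters were also searched on both strands for 5 other motifs, none of which overlaps the GC box. CCAAT, the CCAAT box, has 1 match in FGFBP1 and is found in 34.6% of all promoters. No match was found in the 3 for TTTGAA, an element of cell cycle promoters found in 15.2% of all, TATAAA, found in 11.5%, TGANTCA, the AP-1 site, found in 7.71%, or CCGGAAG, an ETS site, found in 10.3%. These matches describe the letters in these windows only.

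FGFR3 was detected on all 6 arrays by its brighter probe and was lowest in the spheres. The deposited signal was 2902.1 in RT4P live, 1514.8 in blebbishields, 1023.1 in spheres, 2992.7 in RT4P-BSE2, 3653.2 in RT4v6 and 2568.5 in PBSHMS. The normalized levels were 11.34, 11.13, 9.67, 11.43, 11.77 and 11.28 in the same order. After normalization, 5 cultures lay within 11.13 to 11.77 and the spheres stood below them all. In order of level, RT4v6 came first, then RT4P-BSE2, RT4P live, PBSHMS, blebbishields and spheres. The step from RT4v6 to RT4P-BSE2, 0.34, and the step from blebbishields to spheres, 1.46, exceeded the probe SD of their pairs, and the other neighbours did not differ beyond it. From the highest to the lowest array FGFR3 ranged 4.30-fold.

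TACC3 has 1 probe, detected on all 6 arrays, and was also lowest in the spheres. Its signal was 1381.1 in RT4P live, 1020.4 in blebbishields, 706.8 in spheres, 1661.1 in RT4P-BSE2, 1966.8 in RT4v6 and 1749.8 in PBSHMS. Its levels were 10.22, 10.54, 9.06, 10.55, 10.80 and 10.71 in that order. The 5 other cultures lay between 10.22 and 10.80, with RT4v6 highest and RT4P live the lowest of the 5. Of the steps between neighbours, the one from RT4P live to spheres, 1.17, passed the probe SD of its pair, and the steps among the 5 did not. TACC3 ranged 3.35-fold over the arrays.

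**Figure D1:**
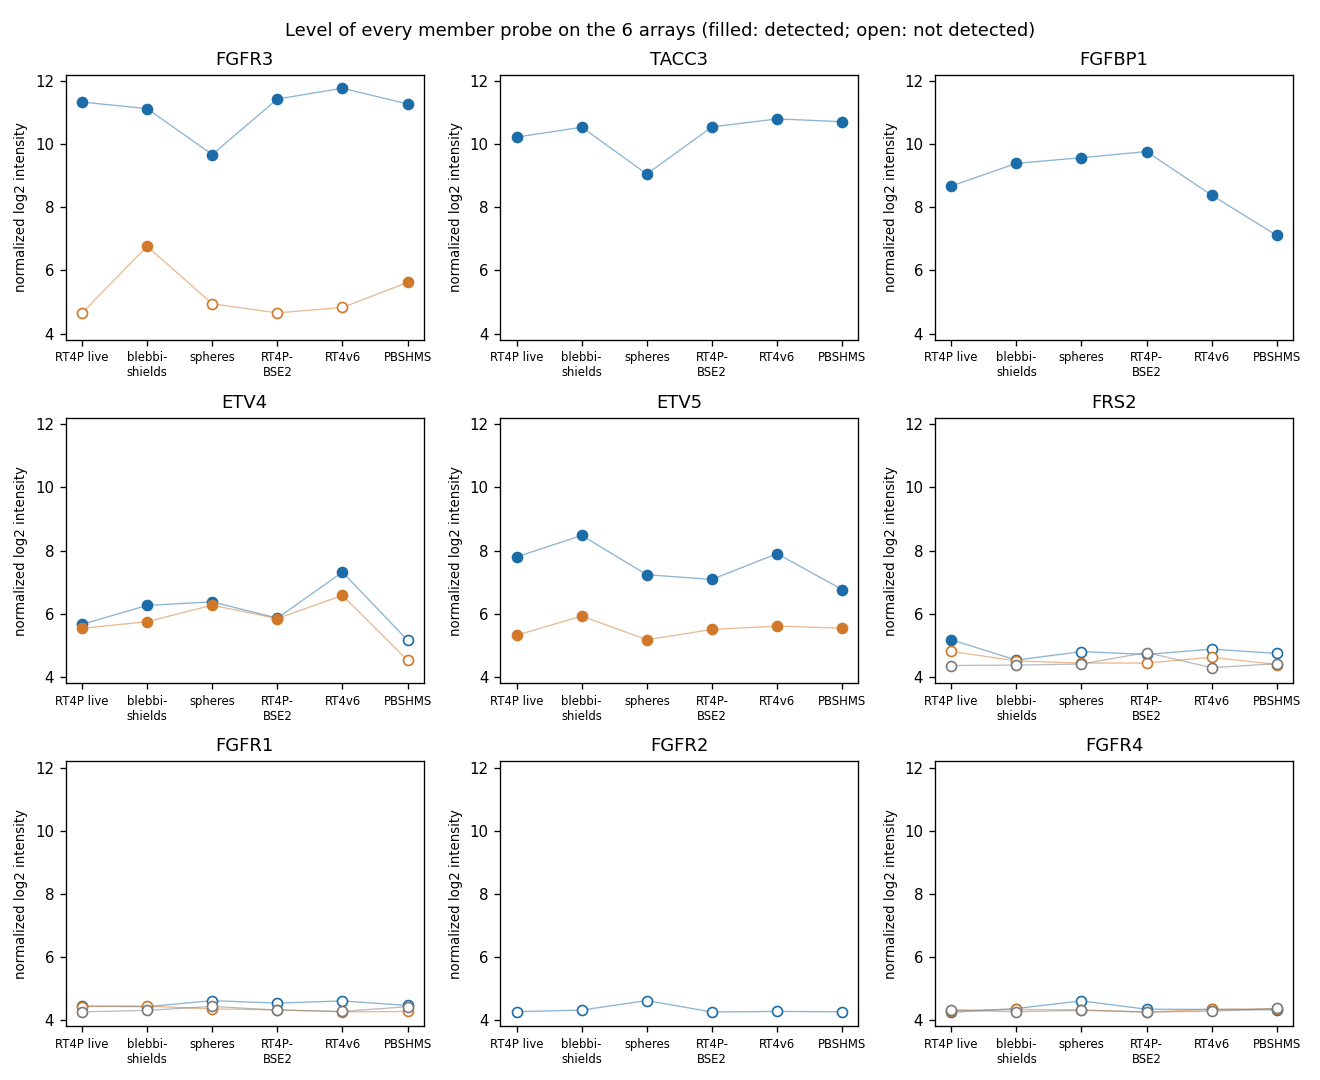
Normalized log2 intensity (vertical axis) of each of the 18 probes of the 9 genes on the 6 arrays (horizontal axis), with a line for each probe, filled points for detected and open points for undetected values. FGFR3's brighter probe and TACC3 dip in the spheres to 9.67 and 9.06, ETV4 peaks in RT4v6, FGFBP1 is lowest in PBSHMS, and the FGFR1, FGFR2 and FGFR4 probes are undetected on every array.

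In spheres against RT4P live, FGFR3 was 3.17-fold lower (log2 difference -1.66) and TACC3 2.25-fold lower (-1.17). They were the 2 genes lower at 2-fold among the 6 of the set that could be measured, and 0 were higher. Over all 14705 genes measured in that comparison, 3.3% were lower and 2.99% higher at 2-fold, with a median difference of 0. FGFR3 lay far down this distribution, with 0.891% of genes below it, and TACC3 had 2.20% below it. Both differences exceeded the comparison's probe SD of 0.26.

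Set against blebbishields, both genes were lower in the spheres by closely similar amounts. FGFR3 was 2.74-fold lower (-1.46) and TACC3 2.80-fold lower (-1.48), and ETV5 was 2.37-fold lower (-1.25). These were 3 lower and 0 higher of 5 genes measured, where 5.98% of 14337 genes were lower and 3.01% higher. The spheres array serves in both comparisons, which are therefore not separate evidence. The second comparison rests on the scaling of the dim blebbishield array: without normalization between arrays the differences were -0.62 for FGFR3, -0.61 for TACC3 and -0.31 for ETV5, while the median of all genes was 0.76. ETV5 was also under 2-fold without background correction (-0.92), with the mean of its probes (-0.999) and with the authors' processed values (-0.95).

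In blebbishields against RT4P live, FGFR3 was 1.16-fold lower (-0.21) and TACC3 1.24-fold higher (0.31), both inside the probe SD of 0.40. Of 6 genes measured, 0 passed 2-fold, with 7.08% of 13878 genes higher and 4.76% lower, so a count of 0 of 6 is near the background. FGFBP1 (0.72), ETV4 (0.60) and ETV5 (0.68) exceeded the probe SD. Without normalization between arrays, where the median of all genes was -0.70, FGFR3 was at -0.97, and 4 genes changed sign: TACC3 to -0.45, FGFBP1 to -0.12, ETV4 to -0.06 and ETV5 to -0.16. FGFR3's own direction turned with the probe, at least 0.72 as the mean of its 2 probes, of which the dimmer is a bound.

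FGFR3's dimmer probe behaved otherwise. Its signal was 105.8 in RT4P live, 140 in blebbishields, 117.6 in spheres, 105 in RT4P-BSE2, 106.8 in RT4v6 and 127.2 in PBSHMS, and it was detected in blebbishields and PBSHMS only. It was at least 3.14-fold higher in blebbishields than in RT4P live, where the brighter probe was 1.16-fold lower. In PBSHMS it was at least 1.42-fold higher than in RT4P live. Spheres were at least 3.38-fold lower than blebbishields by this probe, the same direction as by the brighter one. These folds hold for this processing only, since they rest on signals near the negative controls and on the scaling of the dim array. In the authors' processed values this probe stood at 195.4 in blebbishields, 104.7 in RT4P live and 112.5 in spheres, smaller differences than the folds above. Which exons the probes cover was not analysed here, so neither FGFR3 probe nor the TACC3 probe can be assigned to the fused or to the unfused transcript.

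In the live lines both genes stayed within 2-fold of RT4P live. FGFR3 differed by 0.10 in RT4P-BSE2, 0.44 in RT4v6 and -0.06 in PBSHMS, and TACC3 by 0.32, 0.58 and 0.49. The RT4v6 values, 1.36-fold higher for FGFR3 and 1.49-fold higher for TACC3, exceeded the probe SD of 0.24, as TACC3 did its comparison's probe SD in PBSHMS, at 1.40-fold higher, and in RT4P-BSE2, at 1.25-fold higher. The difference of FGFR3 less that of TACC3 was -0.50 in spheres against RT4P live, 0.03 in spheres against blebbishields, -0.52 in blebbishields, -0.23 in RT4P-BSE2, -0.14 in RT4v6 and -0.55 in PBSHMS, the last 4 also against RT4P live. By its brighter probe FGFR3 thus stood lower relative to TACC3 in the 5 cultures set against RT4P live, an array these 5 values share. The probe SD is a spread for 1 probe and these values combine 2, so it is too narrow a gauge for them. It was 0.40 for blebbishields, 0.22 for RT4P-BSE2 and 0.24 for RT4v6, beside values of -0.52, -0.23 and -0.14. With the mean of FGFR3's 2 probes this order turned in blebbishields, at least 0.72 for FGFR3 and 0.31 for TACC3. The gap narrowed in PBSHMS, at least 0.22 for FGFR3 and 0.49 for TACC3. Both means include the dimmer probe as a bound.

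**Figure D2:**
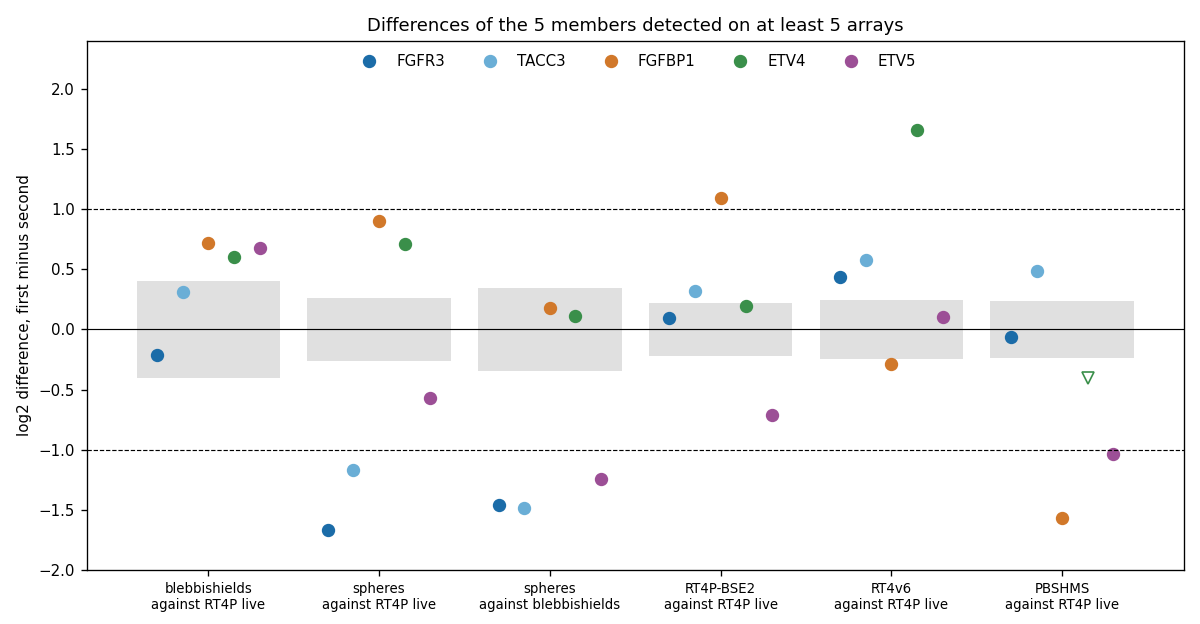
Log2 difference (vertical axis) of the 5 genes detected on at least 5 arrays, in the 6 comparisons (horizontal axis). Grey bands span the probe SD either side of 0, dashed lines mark 2-fold, and the open triangle is a bound. FGFR3 and TACC3 lie below the lower dashed line in both comparisons of spheres, FGFBP1 above the upper line in RT4P-BSE2 and below the lower in PBSHMS, and ETV4 above the upper line in RT4v6.

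FGFR3 and TACC3 are next to each other in RefSeq's gene order on chromosome 4, so their measured neighbours were read too. Of the 8 genes looked at on each side of the pair, 8 in all were measured besides them: CTBP1, MAEA, UVSSA, SLBP and TMEM129 before TACC3, and LETM1, NSD2 and NELFA after FGFR3. In spheres against RT4P live these 8 lay between -0.36 (LETM1, a mitochondrial inner membrane protein) and 0.55 (TMEM129, a ubiquitin ligase). None reached 2-fold in that comparison, where TACC3 was at -1.17 and FGFR3 at -1.66. In RT4P live NSD2 (5.12) and TMEM129 (5.29) lay near the lowest detected levels, so a 2-fold fall could not be counted for them. NELFA, at 6.07, had little more room, while TACC3 stood at 10.22 and FGFR3 at 11.34. SLBP, the histone mRNA stem-loop binding protein, was at 0.22, and NSD2, a histone methyltransferase, was at -0.09.

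**Figure D3:**
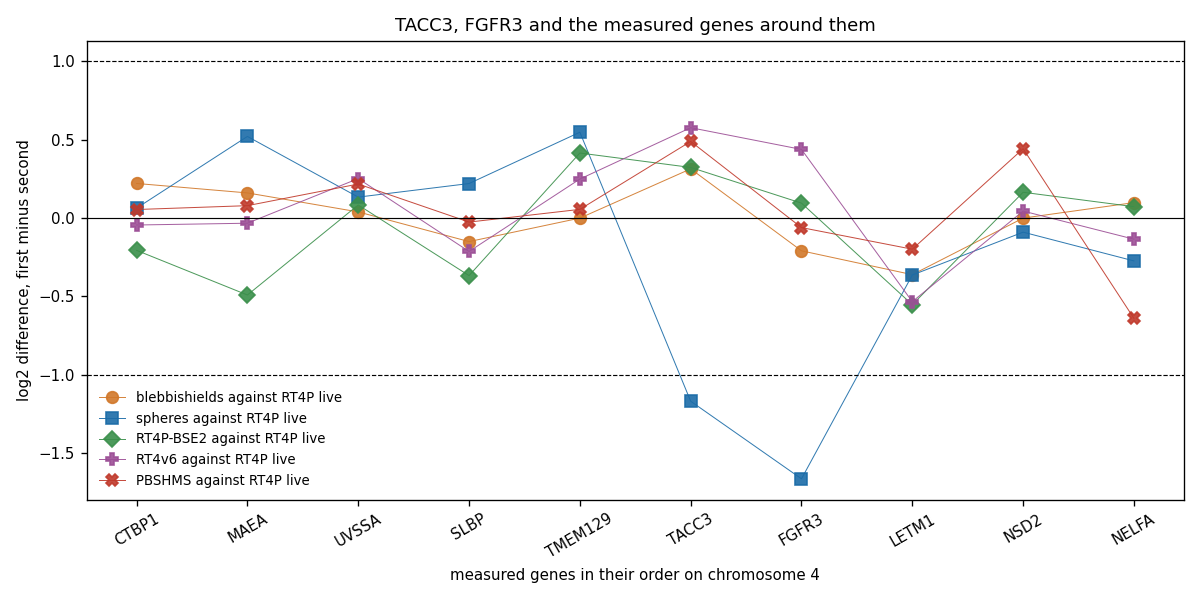
Log2 difference (vertical axis) of TACC3, FGFR3 and the 8 measured genes around them in their order on chromosome 4 (horizontal axis, spacing not to scale), in the 5 comparisons against RT4P live. In spheres TACC3 and FGFR3 sit below the dashed 2-fold line at -1.17 and -1.66, and the 8 neighbours lie from -0.36 to 0.55. NSD2 and TMEM129 were too near the lowest detected levels for a 2-fold fall to be counted.

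TACC3 belongs with spindle genes, and mitosis genes were low in the spheres too. Of 19 mitosis genes measured in spheres against RT4P live, 11 were lower at 2-fold and 0 higher, with a median of -1.16. Over all genes measured there, 3.3% were lower. KIF20A, a kinesin of cytokinesis, was 9.25-fold lower, CENPA, the centromere histone, 6.26-fold lower, HMMR, a spindle protein, 5.60-fold lower, and DLGAP5, a kinetochore fibre protein, 4.36-fold lower. TACC3's difference of -1.17 lay near the median of that list. The summed normalized intensity of the 19 genes was 12525 in RT4P live, 8497 in blebbishields, 5532 in spheres, 15992.5 in RT4P-BSE2, 12888 in RT4v6 and 12482 in PBSHMS. The spheres had the lowest sum, as they had the lowest FGFR3 and TACC3, and the part of cell cycle state in those results was not tested. Blebbishields against RT4P live had 4 of 19 lower, with a median of -0.55, while TACC3 stood at 0.31 there. Spheres against blebbishields had 2 of 19 lower, with a median of -0.68. Over all genes measured, 4.76% were lower in the first of these 2 comparisons and 5.98% in the second. The medians in the live lines against RT4P live were 0.31 in RT4P-BSE2, 0.04 in RT4v6 and 0.01 in PBSHMS, with 0 of 19 at 2-fold in each.

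Among 11 genes of the TACC family and the partners of TACC3, all were detected on all 6 arrays. In spheres against RT4P live 2 were lower, with a list median of -0.29, where 3.3% of all genes measured were lower. KIF15, a spindle kinesin, was 2.91-fold lower and TPX2, an activator of the kinase AURKA, was 2.11-fold lower. KIF15 had levels of 7.51 in RT4P live, 6.78 in blebbishields, 5.97 in spheres, 7.84 in RT4P-BSE2, 7.12 in RT4v6 and 7.24 in PBSHMS, so that it too was lowest in the spheres. No gene of the list passed 2-fold in the other 5 comparisons. TACC1 and TACC2, the other family members, were 1.38-fold and 1.21-fold lower in blebbishields than in RT4P live.

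The other receptors gave no signal above the negative controls. FGFR1 (3 probes), FGFR2 (1 probe) and FGFR4 (3 probes) were detected on 0 of 6 arrays. The signals of these 7 probes lay between 77.8 and 108.1. Their lowest detection p-values were 0.144 for FGFR1, 0.140 for FGFR2 and 0.152 for FGFR4, all in the spheres. These genes therefore have no level or fold here, and a transcript that these probes do not match would not be seen. FRS2, the adaptor that couples FGF receptors to Ras, has 3 probes, and 1 of them was detected, in RT4P live only. That probe's signal was 119.8 in RT4P live, 89.3 in blebbishields, 113.5 in spheres, 106.5 in RT4P-BSE2, 108.1 in RT4v6 and 103.7 in PBSHMS. As bounds, FRS2 was at least 1.12-fold lower in spheres, 1.09-fold in RT4P-BSE2 and 1.04-fold in RT4v6 than in RT4P live. In blebbishields and PBSHMS the bound leaves no direction. Its level of 5.17 in RT4P live was so near the lowest detected levels that no bound could pass the probe SD. Without the detection filter the differences were -0.37 in spheres, -0.47 in RT4P-BSE2, -0.30 in RT4v6, -0.64 in blebbishields and -0.43 in PBSHMS. Those values rest on undetected signals.

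FGFBP1, a secreted protein that frees FGFs from the matrix, ranged 6.32-fold. Its 1 probe gave signals of 529.4 in RT4P live, 483 in blebbishields, 960.5 in spheres, 1004.5 in RT4P-BSE2, 439.2 in RT4v6 and 216.4 in PBSHMS. The levels were 8.67, 9.39, 9.57, 9.77, 8.39 and 7.11. After normalization, RT4P-BSE2, spheres and blebbishields formed an upper group whose neighbours differed by less than their probe SD. RT4P live, RT4v6 and PBSHMS followed, each step larger than the probe SD of its pair. The place of blebbishields in the upper group rests on the scaling of the dim array. Without normalization between arrays, spheres were higher than blebbishields by 1.09, and blebbishields were at -0.12 against RT4P live.

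In PBSHMS FGFBP1 was 2.96-fold lower than in RT4P live (-1.57), with 0.645% of genes below it. ETV5 was the other gene of the set at 2-fold there, so that 2 of 6 were lower and 0 higher, where 2.04% of 13803 genes were lower and 1.8% higher. In RT4P-BSE2 FGFBP1 was 2.13-fold higher than in RT4P live (1.09), the 1 gene of 6 at 2-fold. Over 14427 genes, 1.3% were higher and 0.27% lower in that comparison. The RT4P-BSE2 value lay near the 2-fold line and was 0.96 without background correction. In spheres FGFBP1 was 1.86-fold higher than in RT4P live (0.90), in blebbishields 1.65-fold higher (0.72, but -0.12 without normalization between arrays) and in RT4v6 1.22-fold lower (-0.29). All of these 3 were under 2-fold.

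ETV4, an ETS factor of the PEA3 group, was highest in RT4v6. Its brighter probe gave signals of 135.8 in RT4P live, 122.1 in blebbishields, 180.3 in spheres, 143 in RT4P-BSE2, 251 in RT4v6 and 113.9 in PBSHMS, where it was undetected. The levels were 5.66, 6.26, 6.37, 5.86, 7.31 and 5.16. The dimmer probe gave signals of 131.2, 109.3, 173.1, 142.5, 179.8 and 97.5, and it too was highest in RT4v6 and undetected in PBSHMS. In RT4v6 ETV4 was 3.15-fold higher than in RT4P live (1.65) by the brighter probe and 2.06-fold higher (1.04) by the dimmer. It was the 1 gene of 6 at 2-fold, in a comparison with 1.15% of 14215 genes higher and 2.41% lower. Its signals are low, and without background correction the brighter probe's difference was 0.88, under 2-fold. In PBSHMS ETV4 was at least 1.32-fold lower than in RT4P live, and in spheres it was 1.64-fold higher.

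ETV5, the other PEA3 factor of the set, followed another order. Its brighter probe gave signals of 324.2 in RT4P live, 286.9 in blebbishields, 259.5 in spheres, 227.1 in RT4P-BSE2, 336.5 in RT4v6 and 187.3 in PBSHMS, and levels of 7.80, 8.48, 7.23, 7.08, 7.90 and 6.76. Blebbishields were highest after normalization and PBSHMS lowest. In PBSHMS ETV5 was 2.05-fold lower than in RT4P live (-1.03), and in RT4P-BSE2 1.64-fold lower (-0.71). The dimmer probe, detected on all 6 arrays, did not share these differences, at 0.23 in PBSHMS and 0.18 in RT4P-BSE2. Both probes were higher in blebbishields than in RT4P live, by 0.68 and 0.61, a direction that rests on the scaling of the dim array, since the brighter probe was at -0.16 without normalization between arrays. The mean of both probes put PBSHMS at -0.40, so the 2-fold difference there is that of the brighter probe only.

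At the receptor end of the wider pathway, most FGF genes were not detected. Of 22 FGF family genes on the array, not all of them receptor ligands, 18 were detected on no array. FGF9, FGF12, FGF18 and FGF23 were detected on at least 1. No FGF gene passed 2-fold in any of the 6 comparisons, but a fall of that size could not be counted here. Their detected levels lay between 5.09 and 5.86, close to the lowest detected level of an array, which stands in for undetected values. FGF9, FGF18 and FGF23 were detected in RT4P live and undetected in RT4P-BSE2. FGF9, a ligand of FGFR3, had levels of 5.44 in RT4P live, 5.58 in blebbishields, 5.31 in spheres and 5.30 in RT4v6, and was undetected in RT4P-BSE2 and PBSHMS.

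Of 17 co-receptor, decoy receptor and binding genes, 11 were detected on at least 1 array. The list had 1 lower in RT4v6 (SDC2, a heparan sulfate proteoglycan, 2.53-fold), 1 higher in PBSHMS (FLRT3, a membrane protein that binds FGF receptors, 2.04-fold) and 1 higher in spheres against blebbishields (GPC4, a glypican, at least 2.04-fold). None passed 2-fold in the other 3 comparisons. Over all genes measured, 2.41% were lower in RT4v6, 1.8% higher in PBSHMS and 3.01% higher in spheres against blebbishields. Counts of 1 in lists this small are not read as results about the list. SDC2 had levels of 6.56 in RT4P live, 7.17 in blebbishields, 7.15 in spheres, 6.40 in RT4P-BSE2, 5.22 in RT4v6 and 6.13 in PBSHMS. Of the heparan sulfate enzymes, 11 of 12 were detected on at least 1 array. EXT1, a polymerase of the chain, was 2.42-fold lower in blebbishields than in RT4P live and 2.38-fold higher in spheres than in blebbishields. It was the 1 enzyme at 2-fold in each of these 2 comparisons, and 0 were in the other 4. These were 1 of 9 and 1 of 11 measured, where 4.76% of all genes were lower in the first and 3.01% higher in the second.

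The adaptors and signal carriers, 21 genes from GRB2 and SOS1 through Ras and Raf to ERK, were all detected on at least 1 array. In the 5 comparisons other than RT4P-BSE2 against RT4P live, 0 of the 20 or 21 measured passed 2-fold. The list medians over all 6 comparisons lay between -0.09 and 0.08, near those of all genes.

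The ERK feedback genes, which limit the pathway when it is active, showed scattered differences. In spheres against RT4P live 2 of 9 were lower: SPRY1 by 2.82-fold and SPRY2 by 2.20-fold, both Sprouty inhibitors of Ras signalling. Over all genes measured there, 3.3% were lower. SPRY1 had levels of 9.55 in RT4P live, 8.74 in blebbishields, 8.05 in spheres, 9.53 in RT4P-BSE2, 9.09 in RT4v6 and 8.58 in PBSHMS, lowest in the spheres. IL17RD, also called SEF, an inhibitor of FGF receptor signalling, was 4.95-fold higher in blebbishields than in RT4P live, the 1 of 8 at 2-fold. It was 3.29-fold lower in spheres than in blebbishields, the 1 of 9 at 2-fold there. Over all genes measured, 7.08% were higher in the first of these comparisons and 5.98% lower in the second. DUSP6, an ERK phosphatase and a common readout of the pathway, did not pass 2-fold in any comparison, with levels from 10.06 in PBSHMS to 10.91 in blebbishields. In RT4v6 1 of 9 was lower, SPRED1 by 2.04-fold, and in PBSHMS 1 of 9 was higher, the ERK phosphatase DUSP4 by at least 2.70-fold. In RT4P-BSE2 0 of 9 passed 2-fold. Over all genes measured, 2.41% were lower in RT4v6 and 1.8% higher in PBSHMS, each against RT4P live.

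**Figure D4:**
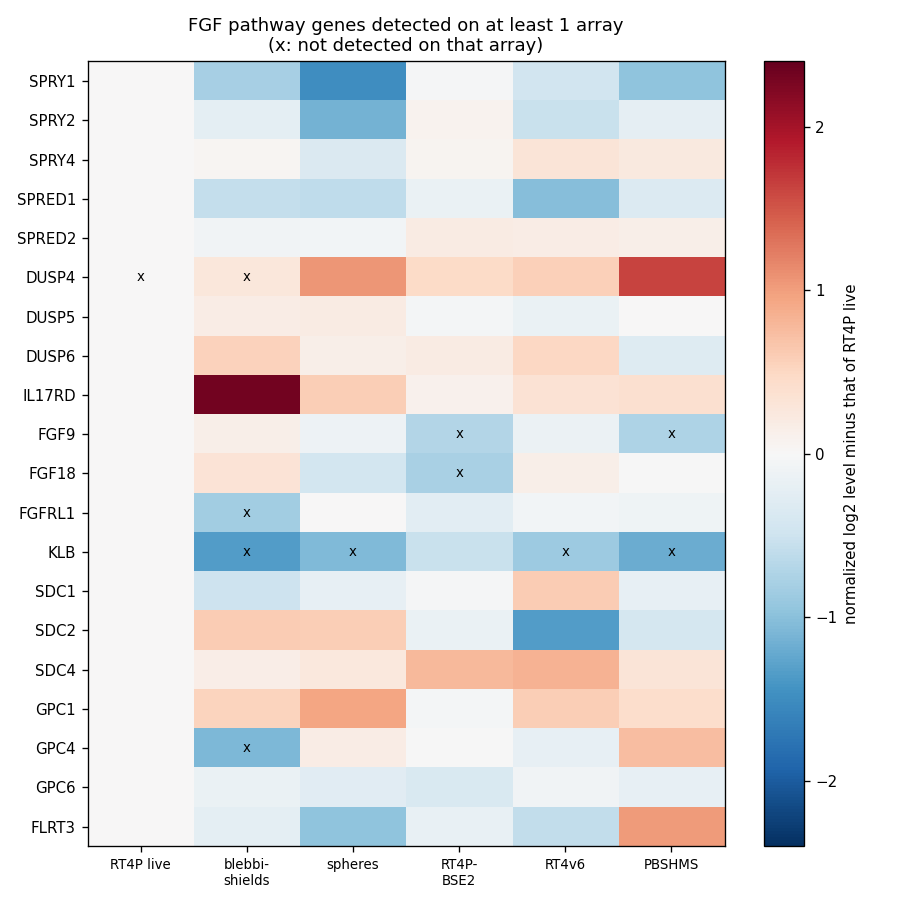
Normalized log2 level minus that of RT4P live (colour) for 20 ligand, co-receptor and ERK feedback genes (rows) on the 6 arrays (columns), with a cross where a gene was not detected. IL17RD in blebbishields is the darkest red cell at 2.31, and SPRY1 and SPRY2 are blue in the spheres at -1.49 and -1.14.

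Of 14 other receptor tyrosine kinases, 8 were detected on at least 1 array. KIT, the stem cell factor receptor, had levels of 8.75 in RT4P live, 6.44 in blebbishields, 6.62 in spheres, 9.95 in RT4P-BSE2, 9.23 in RT4v6 and 7.72 in PBSHMS. It was 4.97-fold lower in blebbishields and 4.39-fold lower in spheres than in RT4P live, 2.30-fold higher in RT4P-BSE2 and 2.05-fold lower in PBSHMS. EPHA2, an ephrin receptor, was 2.49-fold higher in PBSHMS. No other kinase of the list passed 2-fold, and EGFR, ERBB2 and ERBB3 stayed under it in all 6 comparisons. Over all genes measured against RT4P live, 4.76% were lower in blebbishields and 3.3% in spheres, and 1.3% were higher in RT4P-BSE2. In PBSHMS 2.04% were lower and 1.8% higher.

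Blood and endothelial markers also differed between these arrays. In blebbishields against RT4P live 2 of 6 blood markers measured were higher, FCGR3A by at least 5.37-fold and CD68 by 5.06-fold, and the endothelial marker VWF was 2.58-fold higher. In spheres against blebbishields 2 of 7 blood markers were lower, FCGR3A by 4.46-fold and CD68 by 3.17-fold. Over all genes measured, 7.08% were higher in the first of these comparisons and 5.98% lower in the second. VWF was at least 3.42-fold lower in PBSHMS than in RT4P live. The summed intensity of the 18 blood markers was 2977 in blebbishields, 3691 in RT4P live, 2522 in spheres, 2782 in RT4P-BSE2, 1123 in RT4v6 and 3963 in PBSHMS. The sum follows LCP1, an actin bundling protein that was 8.62-fold lower in RT4v6 than in RT4P live. In PBSHMS 0 of 4 blood markers measured passed 2-fold. The part of such markers in the FGFR3, FGFBP1 and ETV values was not tested. The stromal marker VIM stayed under 2-fold in all 6 comparisons.

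Genes whose profiles over the 6 arrays lay closest to each gene of the set were named from 9331 genes detected on at least 4 arrays, by the root mean square distance between centred log2 levels. With 6 arrays such likeness is a description only. For FGFR3 the 5 closest were ID1 (0.12), PSRC1 (0.18), DEPDC1 (0.19), KIF5C (0.20) and TMEM135 (0.20), and TACC3 came 6th at 0.21. For TACC3 they were ATAD2B (0.16), PSRC1 (0.17), TMEM135 (0.19), CKAP2L (0.19) and PLEKHA7 (0.19), and FGFR3 came 7th. ID1 had levels of 11.84 in RT4P live, 11.50 in blebbishields, 10.37 in spheres, 11.88 in RT4P-BSE2, 12.10 in RT4v6 and 11.74 in PBSHMS, the same low point and the same high point as FGFR3. PSRC1 and TMEM135 stood on both lists.

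By this distance FGFBP1 had no profile as close, with GPNMB (0.32), VPS37D (0.34), IRAG2 (0.35), RIMKLA (0.39) and ADA2 (0.40) as its nearest. The distance depends on a gene's range, and FGFBP1's SD over the arrays was 0.91, against 0.67 for FGFR3 and 0.59 for TACC3. Pearson's r of FGFBP1 with these 5 ran from 0.91 for ADA2 to 0.99 for VPS37D. ETV4 was nearest to PTAFR (0.20), PC (0.20), MTFR1 (0.22), TFPI (0.24) and GRN (0.29). ETV5 was nearest to JMJD7 (0.17), SOX2 (0.20), RGS2 (0.20), ZNF365 (0.21) and METAP1D (0.21). ETV4 and ETV5 were not among each other's nearest genes: ETV5 ranked 1601st for ETV4, and ETV4 ranked 3711th for ETV5.

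**Figure D5:**
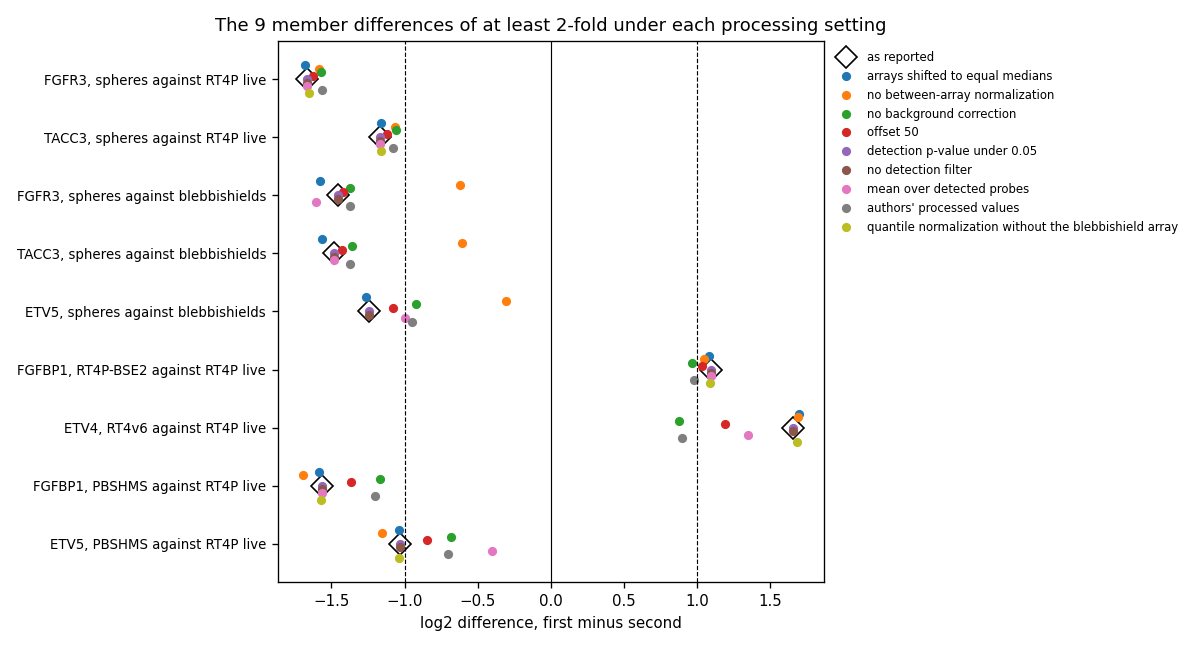
Log2 difference (horizontal axis) of the 9 differences of at least 2-fold (rows) as reported (open diamonds) and under 9 other ways of processing the values (coloured dots), with dashed lines at 2-fold. FGFR3 and TACC3 in spheres against RT4P live and FGFBP1 in PBSHMS stay beyond the dashed lines under all of them, and all 9 keep their sign.

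Of the 9 differences at 2-fold, 3 stayed at 2-fold under every alternative run. FGFR3 in spheres against RT4P live ranged from -1.68 to -1.57, TACC3 from -1.17 to -1.06, and FGFBP1 in PBSHMS from -1.70 to -1.17. The changed detection filters and the mean over detected probes could not move these 3.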

How the data were processed

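Total RNA from 6 cultures went onto Illumina HumanHT-12 version 4 arrays, 1 array for each of 6 groups, per the labels. The deposited files comprise raw signal intensity of 47322 probes, not normalized, and a processed intensity table whose processing steps are not given in the sources used here. A detection p-value for every probe and array is also deposited, per the file headers. GenomeStudio appears in the submitters' processing notes, without a version. No genome build is named.

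The raw intensity was processed with neqc (limma 3.58.1, R 4.3.3): normexp correction, using control means and spreads estimated from detection p-values, then an offset of 16, quantile normalization over the 6 arrays, and log2. Tables were handled in Python 3.11.15. A gene was measured in a comparison if either array gave it a detection p-value below 0.01. Its brightest detected probe, by mean over all arrays, stood for it. Undetected values were lifted to the array's lowest detected value, so those folds are bounds, and bounds pointing the other way became 0. Differences of 2-fold or more were counted. With 1 array per group no test is possible, and the number of arrays limits the precision. For the probe SD, the 2 brightest probes of each gene were compared: the SD of their disagreement was scaled down by the square root of 2.

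The members and the 12 lists of related genes were chosen with earlier results of these data known. Of 177 list genes, 176 had a probe. A result for 1 list gene is not reported here. The text names all 9 genes with every probe, up to 4 genes of each list with the largest difference at 2-fold or more in a comparison, and the 5 closest profiles. Some genes under 2-fold, such as DUSP6, TACC1, TACC2, FGF9, EGFR and the chromosome 4 neighbours, were named in addition, after their values were seen. Tested on simulated data for spheres against RT4P live (22524 probes, noise SD 0.2), the steps called 36% of 50 probes changed 2-fold and 76% of 50 changed 3-fold. Of those at a level of 8 or more before the change, 56.25% of 16 and 100% of 20 were called. Of 22325 unchanged probes 9 were called. The noise SD was assumed, since no replicates exist, and these rates depend on it. The alternatives changed the background correction, the offset, the normalization between arrays, the detection filter, the choice of probe, or the table used.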

Additional observations from a re-analysis of the deposited data

How the results depend on the processing

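The 9 differences of at least 2-fold were recomputed under up to 9 alternatives, of which quantile normalization without the blebbishield array was chosen after seeing the data. All 9 kept their sign under those run, and 3 kept 2-fold under all: FGFR3 and TACC3 in spheres and FGFBP1 in PBSHMS, each against RT4P live. For these 3, the changed detection filters and the mean over detected probes returned the main value. They use 1 probe detected on both arrays, so those alternatives could not move them. Of 304 recomputed differences, 273 moved by less than the probe SD and 31 by more. The 273 include recomputations that could not move the value. Without normalization between arrays, spheres against blebbishields had 1 gene of the set at 2-fold instead of 3, and that gene was FGFBP1, higher by 1.09. That count was 2 without background correction, with the mean over probes and with the authors' values, where ETV5 was at -0.92, -0.999 and -0.95, and ETV5 kept 2-fold in 4 of 8 alternatives. All genes without normalization between arrays had a median of 0.76 there and -0.70 in blebbishields against RT4P live. Without background correction, and with the authors' processed values, RT4P-BSE2 had 0 instead of 1 (FGFBP1 at 0.96 and 0.98) and RT4v6 had 0 instead of 1 (ETV4 at 0.88 and 0.90). PBSHMS had 1 instead of 2 without background correction, with an offset of 50, with the mean over probes and with the authors' values, losing ETV5 each time. The cause was not tested.

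The share of higher among all genes at 2-fold was 59.8% in blebbishields against RT4P live, 72.8% with arrays shifted to equal medians and 9.20% without normalization between arrays. In spheres against blebbishields it was 33.5%, 18.6% and 95.8%. Without that normalization it went from 47.5% to 59.0% in spheres and from 46.9% to 31.1% in PBSHMS. In RT4P-BSE2 it was 82.7%, and 93.7% to 95.2% with an offset of 50, without background correction or with the authors' values. The number of all genes at 2-fold also depended on the background step. In blebbishields it was 1643, and 819 without background correction, 831 with the authors' values and 4661 without normalization between arrays. In the order without background correction, authors' values, offset of 50, it went from 926 to 380, 389 and 555 in spheres, from 226 to 104, 105 and 142 in RT4P-BSE2, from 505 to 165, 179 and 269 in RT4v6, and from 529 to 172, 186 and 288 in PBSHMS. Spheres against blebbishields went from 1288 to 575, 592 and 805, and to 4882 without normalization between arrays. No paired analysis was possible because each group has 1 array and no result comes from a test. Signals near the negative controls limit ETV4, FRS2, FGFR1, FGFR2, FGFR4 and the dimmer FGFR3 and ETV5 probes.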
